A study of Drosophila melanogaster with 2 samples.

Results

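The large-subunit cytoplasmic ribosomal protein genes of Drosophila melanogaster encode the proteins of the 60S ribosomal subunit. They were taken as every annotated gene whose symbol is RpL followed by a digit, together with RpLP0, RpLP1 and RpLP2, which gave 53 of the 18164 annotated genes on the main chromosome arms. The data were chromatin immunoprecipitation and sequencing (ChIP-seq) of CG11398, a fly gene product fused at its C terminus to eGFP and recovered with an antibody to GFP. The material was whole embryos of the transgenic strain CG11398-GFP, of both sexes pooled and aged 0 to 24 h, in 1 group of 2 biological replicates, numbered 1 and 3. A whole-embryo sample mixes all cell types and 24 h of development, so differences between tissues or stages are not visible in it. With 1 group and no control analysed here, no test between conditions could be made, no p-value is given, and these lists alone do not separate CG11398 binding from enrichment that active chromatin gives in any ChIP. The transgene was stably carried by the strain, and the promoter that drove it is not stated in the labels.

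The large subunit joins amino acids at the peptidyl transferase centre and passes the new chain through an exit tunnel, while its P stalk recruits the translation factors. Its protein genes are among the most highly transcribed of a growing cell, and in flies the loss of 1 copy of many of them gives the Minute phenotype of slow growth and short bristles. Many ribosomal protein genes of flies start transcription at a pyrimidine-rich TCT initiator in place of the usual initiator, and some carry the DNA replication-related element (DRE) or the core of Ohler motif 1, elements of broadly active promoters.

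The promoters shown here are of the 5 members with the strongest peaks (RpL7, RpL14, RpL23A, RpLP0 and RpL30), of 3 with a DRE (RpL27, RpL34a and RpL37-1), of 4 without a peak of the stringent list (RpL6, RpL35, RpL40 and RpL24-like), and of the paralogues RpL10Ab and RpL10Aa, with and without a peak. Each runs 5′ to 3′ from 80 bases before an annotated transcription start site (TSS) through the first 20 transcribed bases, in the dm6 build, read from the RefSeq genome of Release 6. The TSS is the annotated one nearest the summit or, without a region, that of the canonical transcript. Capitals mark the DRE (TATCGATA) and the motif 1 core (GTCACAC) on either strand, and within 5 bases of the start the TCT initiator, TCTTT or CCTTT.
RpL7 (chr2L:10200924-10201023, plus strand): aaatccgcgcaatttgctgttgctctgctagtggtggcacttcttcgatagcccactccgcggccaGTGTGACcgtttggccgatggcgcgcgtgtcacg
RpL14 (chr3L:8600926-8601025, plus strand): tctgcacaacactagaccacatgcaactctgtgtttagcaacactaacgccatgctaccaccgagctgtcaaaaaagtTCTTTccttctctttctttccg
RpL23A (chr3L:1668635-1668734, minus strand): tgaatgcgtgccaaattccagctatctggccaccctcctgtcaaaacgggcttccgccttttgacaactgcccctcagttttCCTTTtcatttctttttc
RpLP0 (chr3L:22076012-22076111, plus strand): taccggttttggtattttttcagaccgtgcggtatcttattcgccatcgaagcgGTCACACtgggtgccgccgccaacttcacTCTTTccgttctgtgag
RpL30 (chr2L:19009218-19009317, minus strand): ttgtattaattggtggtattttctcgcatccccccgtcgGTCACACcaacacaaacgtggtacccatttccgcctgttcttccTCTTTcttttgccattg
RpL27 (chr3R:25685032-25685131, minus strand): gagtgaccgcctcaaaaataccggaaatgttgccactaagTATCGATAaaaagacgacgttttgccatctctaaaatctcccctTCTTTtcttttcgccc
RpL34a (chr3R:26059248-26059347, minus strand): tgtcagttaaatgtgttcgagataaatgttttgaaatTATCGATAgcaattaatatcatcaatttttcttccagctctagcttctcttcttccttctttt
RpL37-1 (chrX:15139348-15139447, minus strand): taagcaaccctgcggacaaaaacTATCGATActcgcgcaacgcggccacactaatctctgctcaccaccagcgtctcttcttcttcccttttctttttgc
RpL6 (chr3R:31596185-31596284, minus strand): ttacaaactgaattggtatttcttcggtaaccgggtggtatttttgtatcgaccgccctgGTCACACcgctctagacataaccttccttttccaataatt
RpL35 (chrX:5672654-5672753, plus strand): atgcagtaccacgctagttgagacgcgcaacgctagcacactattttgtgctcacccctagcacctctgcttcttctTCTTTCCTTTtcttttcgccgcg
RpL40 (chr2L:4227619-4227718, plus strand): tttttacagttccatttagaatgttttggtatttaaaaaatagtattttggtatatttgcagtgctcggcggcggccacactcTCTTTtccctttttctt
RpL24-like (chr3R:11431563-11431662, minus strand): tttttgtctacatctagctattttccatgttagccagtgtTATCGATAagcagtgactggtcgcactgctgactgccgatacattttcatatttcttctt
RpL10Ab (chr3L:11822771-11822870, plus strand): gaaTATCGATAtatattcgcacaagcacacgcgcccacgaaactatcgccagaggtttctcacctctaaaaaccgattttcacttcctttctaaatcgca
RpL10Aa (chr3R:15037286-15037385, plus strand): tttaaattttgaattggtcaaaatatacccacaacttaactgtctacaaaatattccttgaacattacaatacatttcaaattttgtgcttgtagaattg
The TCT letters lay at the start in RpL14, RpL23A, RpLP0, RpL30, RpL27, RpL35 and RpL40, thus in members with and without a peak. At RpLP0 and RpL30 the motif 1 core stood upstream of them, and at RpL7 and RpL6 it stood there without them. RpL7 has the TCT letters at another annotated start. RpL10Aa held none of these letters in its stretch, and RpL10Ab held a DRE.

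Most large-subunit genes carried a CG11398 peak at their start. Of the 53 members, 38 (71.7%, exact 95% binomial interval 57.7 to 83.2, which covers counting error only) had a summit of the stringent list within 500 bp of an annotated TSS. That list, which the deposited notes name the optimal one by irreproducible discovery rate, is called thresholded here, and its entries are called peaks. The same held for 12.6% of the 13945 protein-coding genes and 10.6% of all annotated genes. Of the members with any region at the start in the pooled relaxed list, which retains weak background, 38 of 47 (80.9%) had a peak, against 23.9% of protein-coding genes with such a region. No 2 members shared a peak. A further 9 members had only a relaxed region, and 6 (11.3%) had neither, compared with 47.4% of protein-coding genes that had no relaxed region at the start.

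The other ribosome genes were counted by the same rule. Of the small-subunit genes 24 of 39 had a peak (61.5%, exact 95% interval 44.6 to 76.6), which overlaps the interval of the large subunit. Of the mitochondrial ribosomal protein genes 17 of 73 had one (23.3%, interval 14.2 to 34.6). These intervals cover counting error only and genes are not replicates, so comparing the intervals is no test between the sets. Genes of ribosome assembly and RNA polymerase I, from a list of 17, had a peak in 4 cases (23.5%, interval 6.81 to 49.9). They were eIF6, an anti-association factor of the large subunit (signal 565), Nopp140 (97.0), Fib, which encodes the nucleolar methyltransferase fibrillarin (96.8), and Ns1 (80.1). Of 7 genes listed as regulators of ribosomal protein synthesis, 3 had one (42.9%, interval 9.90 to 81.6): Dref, whose product binds the DRE (243), Thor, which encodes the translation repressor 4E-BP (180.1), and the growth kinase gene mTor (112). RpL13 and Dref shared their peak. The mTor summit was -330 bp from the TSS of mTor but -43 bp from that of Vha68-1. The Ns1 summit was -48 bp from the TSS of Ns1 and -9 bp from that of mRpS11.

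**Figure D1:**
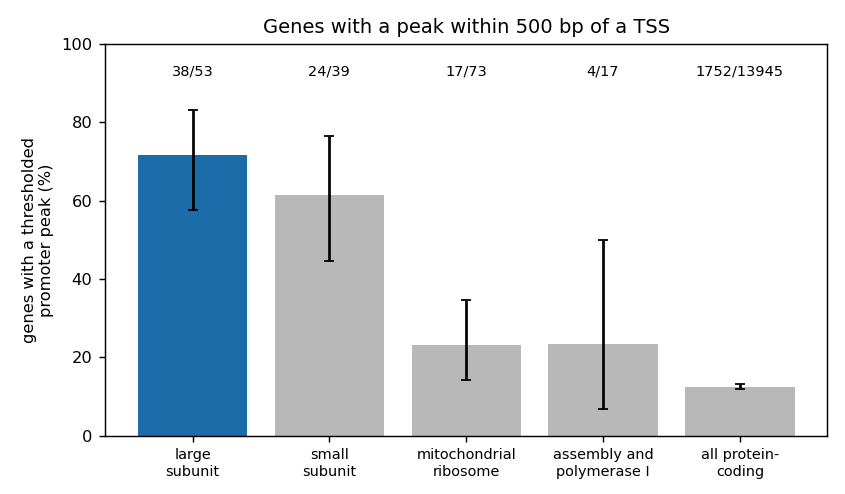
Bars give the percent of genes in each set with a thresholded summit within 500 bp of an annotated TSS, with exact 95% binomial intervals for counting error and the counts printed above. The large subunit stands at 71.7%, the small subunit at 61.5%, mitochondrial ribosomal proteins and the assembly list at 23.3% and 23.5%, and all protein-coding genes at 12.6%.

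The signal value of a region is the authors' own, with no stated normalization, and is used to describe and rank. For the 38 members with a peak it ran from 80.7 to 491 with a median of 177, while the 1290 distinct peaks at protein-coding starts had a median of 115.1. Ranked among all 2712 peaks, 33 of the 38 (86.8%) were in the upper 50%, 21 (55.3%) in the upper 25% and 11 (28.9%) in the upper 10%. For all protein-coding genes with a peak the shares were 50.4%, 26.9% and 10.05%. RpL7 and RpL14 were the members among the 100 strongest peaks, at ranks 53 and 63. The signal over both replicates was close to the sum of the replicate signals, between 0.928 and 1.06 times that sum at the member peaks, so it is on another scale than they are. The lists carry no read counts, so the depth behind each value is unknown.

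The strongest member was RpL7, with 235 in replicate 1, 257 in replicate 3 and 491 over both (2L 10200898 to 10201159, summit 38 bp from the TSS). RpL14 had 258 and 188 in replicates 1 and 3 and 443 over both. RpL23A, at the rim of the exit tunnel, had 205 and 170.4, and 374 over both. Both replicates thus put these 3 at the head of the members. RpLP0 came next with 166 and 159.6, and 314 over both. RpL30, which in yeast binds its own transcript and blocks its splicing, had 152 and 153, and 304 over both. RpL24, a protein of the face that meets the small subunit, had 142 and 150.0, and 293 over both. RpL28 (signal over both 279), RpL13A, known in mammals for silencing inflammatory transcripts when released from the ribosome (275), RpL22 (271) and RpL34b (261) completed the 10 strongest. Their replicate signals lay between 123 and 152, and any 2 of these 4 genes overlapped in them.

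**Figure D2:**
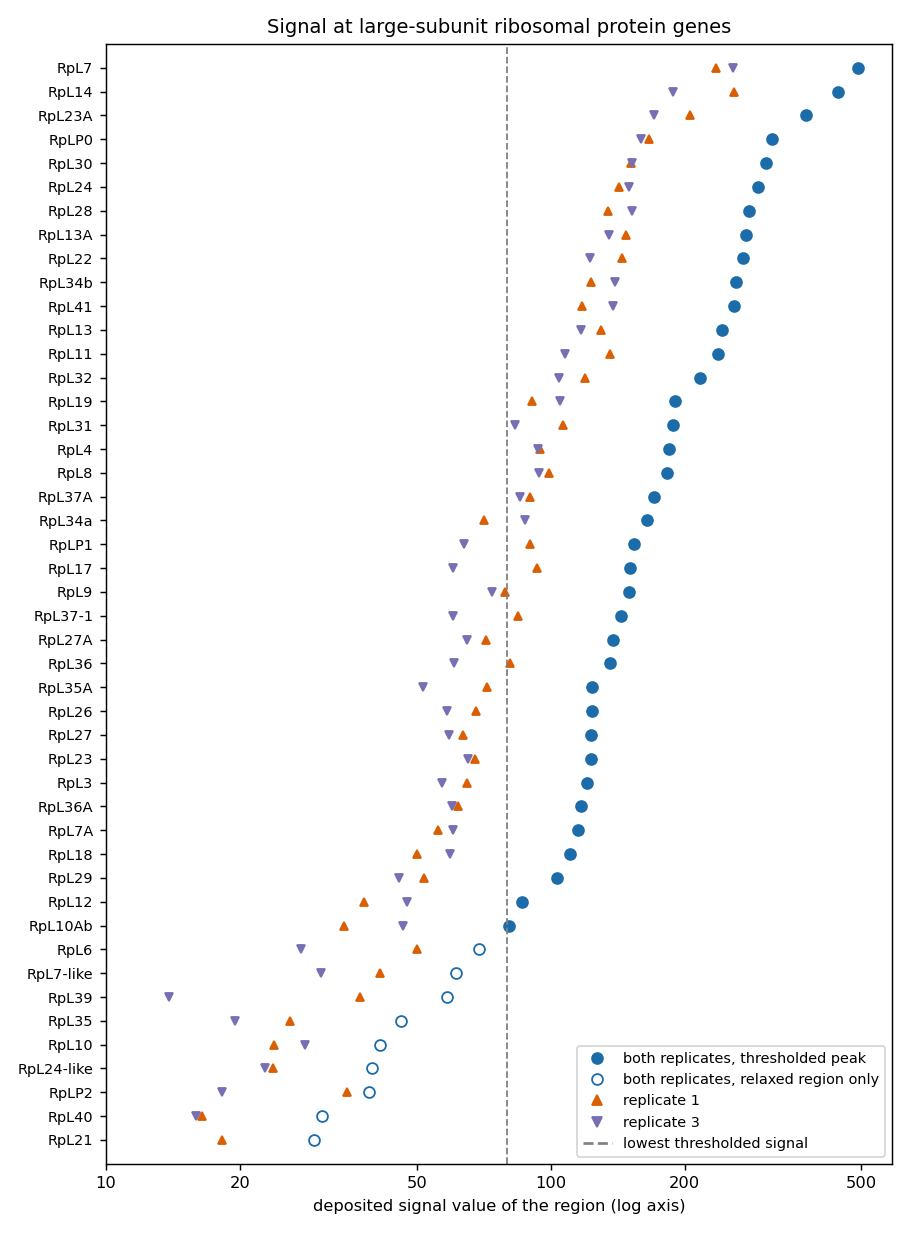
Each row is 1 of 46 large-subunit genes with a region near the TSS, placed on a log axis of the deposited signal; circles are the value over both replicates (filled for a thresholded peak, open for a relaxed region only) and triangles the 2 replicates. RpL7 leads at 491, RpL10Ab at 80.7 is just above the dashed lowest thresholded signal of 79.8, and RpL6 at 69.0 is the first below it; RpL21 has no replicate 3 region.

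The P stalk, which binds the translation factors during elongation, was uneven. RpLP0, the stalk's anchor, carried the strongest peak of the group. RpLP1, a tip protein, had 89.7 in replicate 1 and 63.8 in replicate 3, and 154 over both. RpL12, at the stalk base, had 37.9 and 47.6, and 86.2 over both, the second lowest of the 38. RpLP2, the partner of RpLP1 at the tip, had no peak. Its relaxed region reached 34.9 in replicate 1 and 18.3 in replicate 3, and 39.1 over both, with the summit 45 bp from the TSS. The overlapping replicate 1 region had its summit 163 bp from that one, and the replicate 3 region -9 bp.

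RpL5 and RpL11 bind the 5S RNA together and are known in mammals for restraining Mdm2 when ribosome assembly is disturbed. RpL11 had 136 in replicate 1 and 108 in replicate 3, and 238 over both. RpL5 had no region within 500 bp of any of its 3 starts. Near the peptidyl transferase centre, RpL8 had 99.1 and 93.9, and 183 over both, and RpL3 had 64.7 and 57.0, and 121 over both. RpL10, which is loaded last onto the maturing subunit, had only a relaxed region (23.8 and 28.1, and 41.2 over both).

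The exit tunnel group had peaks at 7 of 9 genes, with a median signal of 188. Besides RpL23A and RpL22, the values over both replicates were 190.5 at RpL19, 188 at RpL31, 184 at RpL4, whose loop lines the tunnel, 151 at RpL17 and 124 at RpL26. RpL35 and RpL39 had relaxed regions of 45.9 and 58.4. RpL39 was the member whose replicates differed most, with 37.2 in replicate 1 and 13.8 in replicate 3. RpL40, made as a fusion to ubiquitin, had a weak relaxed region of 30.5 over both (16.5 and 15.9), its summit in an intron 124 bp from the TSS. The 34 members outside these groups had peaks in 25 cases, with a median of 165.

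In 5 of the 6 paralogue pairs only 1 copy had a peak. RpL7 had 491, whereas RpL7-like had a relaxed region of 61.4, with its summit 6 bp from the TSS of JhI-21 and -347 bp from its own. RpL24 had 293, whereas RpL24-like, related to the yeast assembly factor Rlp24, had a relaxed region of 39.7. RpL22 (271), RpL10Ab (80.7) and RpL37-1 (144) had peaks, whereas RpL22-like, known for expression in the male germline, RpL10Aa and RpL37-2 had no relaxed region at the start. The nearest relaxed summit was 7356 bp from RpL22-like, 21138 bp from RpL10Aa and 3321 bp from RpL37-2. The exception was RpL34a with 165 and RpL34b with 261. RpL34a reached 70.8 in replicate 1 and 87.8 in replicate 3, and RpL34b 123 and 139.8, so the ranges of the copies did not overlap.

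The 15 members without a peak differed in where they lay. RpL15 (3L 27267255 to 27268445), RpL38 (2R 4515388 to 4516458), RpL5 (2L 22532279 to 22536884), RpL10 (3L 23093190 to 23095471) and RpL21 (2L 22247111 to 22247875) lay in stretches with few regions of any kind. The number of relaxed summits within 100 kb was 0 for RpL15, 1 for RpL38, 1 for RpL5, 6 for RpL10 and 10 for RpL21, compared with a median of 57 over protein-coding genes. These were the 5 members with at most 10 such summits, a number that 3.27% of protein-coding genes had. The relaxed summit nearest RpL15 was 2729247 bp away on an arm of 28110227 bp, that nearest RpL38 80418 bp and that nearest RpL5 2390 bp away. How well reads could be placed in these stretches was not measured, and its part in the missing peaks was not tested. The other 10 lay among 23 to 76 relaxed summits. RpL6 came closest to a peak, with 50.03 in replicate 1 and 27.5 in replicate 3, and 69.0 over both. Its summit was in coding sequence, 91 bp from the TSS. The overlapping replicate 3 region had its summit -251 bp from that one in genome coordinates. RpL21 was the weakest member with a region, at 29.4 over both and 18.2 in replicate 1, with no overlapping region in replicate 3, and its summit was also in coding sequence, 205 bp from the TSS. The remaining relaxed regions were overlapped by a region in both replicates, but the replicate summits could lie elsewhere. In genome coordinates and the order of replicates 1 and 3, they lay 186 and -188 bp from the summit over both at RpL24-like. At RpL7-like they lay 25 and -293 bp from it, at RpL10 -180 and -14 bp, and at RpL35 -47 and 4 bp. RpL35 had 25.9 in replicate 1 and 19.5 in replicate 3, RpL7-like 41.4 and 30.4, and RpL24-like 23.7 and 22.8.

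At the lower end, RpL10Ab (34.4 in replicate 1 and 46.6 in replicate 3, and 80.7 over both) was the weakest member with a peak. No thresholded peak of any gene was below 79.8, and the strongest relaxed region left out had 79.8 as well, so the thresholded list equals the 2712 strongest regions of the pooled list. The members' presence or absence of a peak is thus a cut through a range of signals. Among members without a peak the nearest thresholded summit outside the window was 1998 bp from RpL39 and 2066 bp from RpLP2.

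The summits of the members lay close to the start. Their median was -16.5 bp, where negative means upstream, and 34 of 38 (89.5%) were within 100 bp of the TSS. For all protein-coding genes with a peak the median was -93 bp and 44.3% were within 100 bp. The small subunit had a median of -10 bp and 22 of 24 within 100 bp, and the mitochondrial ribosomal protein genes a median of -144 bp and 7 of 17. Upstream of the TSS were 26 of the 38 (68.4%), against 77.3% for all protein-coding genes with a peak. In 23 members the summit was within 25 bp of the TSS. In the genes' own transcripts 16 summits were in the 5' UTR, 1 (RpL26) in an intron and 21 outside the gene.

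**Figure D3:**
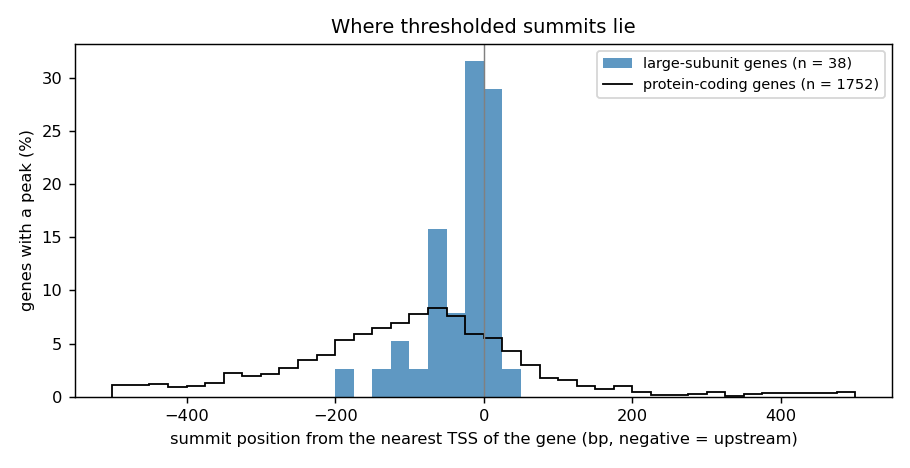
A histogram in 25 bp bins of the summit position relative to the gene's nearest TSS, as percent of the genes with a peak, for the 38 large-subunit genes (filled) and all 1752 protein-coding genes (outline). The large-subunit summits gather at the TSS, 34 of 38 within 100 bp of it and none beyond 38 bp downstream, while the outline spreads upstream around its median of -93 bp.

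Among the summits farthest upstream were those of RpL34a (-145 bp) and RpL23 (-107 bp). Farthest downstream were RpL7 (38 bp), RpL36 (21 bp), and RpL8 and RpL37A (both 18 bp). At the members with a peak the replicates gave similar places. The replicate 1 summit was within 50 bp of the peak summit in 36 of 38 members and the replicate 3 summit in 35. The same counts over all peaks are not given here, so this does not set the members apart. The median position was -11.5 bp in replicate 1 and -30.0 bp in replicate 3. At RpL32 and RpL34b a second, weaker peak lay within 500 bp, with signals of 106.9 and 95.7 at -255 and -247 bp. These second peaks were nearer the starts of the neighbours, -54 bp from the TSS of CG7943 and -22 bp from that of CG8132.

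Many of these promoters are shared, so a peak need not belong to the ribosomal gene. In 24 of the 38 members (63.2%) another gene also started within 500 bp of the summit, as did 522 (40.5%) of the 1290 peaks at protein-coding starts. For 20 of them the other genes included a protein-coding one. The nearest other gene was on the opposite strand in 22. In 3 members another start was nearer than the member's own. Among them, the RpL34a summit was -84 bp from the TSS of Trmt61, and the RpL22 summit -71 bp from that of lncRNA:CR44966.

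The neighbours at the other 21 were farther from the summit than the member was. Closest were Dref with RpL13 (-60 bp from the TSS of Dref) and Ripalpha with RpL7 (-68 bp). Within 200 bp there were also Sgf29 with RpL29 (-115 bp), Nelf-E with RpL14 (-122 bp), CG3776 with RpL19 (-130 bp), NaCP60E with RpL41 (-131 bp), asRNA:CR45305 with RpL37A (134 bp) and snoRNA:Psi18S-920 with RpL10Ab (-167 bp). The rest were RpL13A with Dph4 and Spec2, RpL17 with tRNA:Phe-GAA-1-2, RpL18 with Neos, RpL23 with CG13531, RpL28 with eIF1, RpL3 with CG6693, RpL31 with CG12929, RpL32 with CG7943, RpL34b with CG8132, RpL36 with Mybbp1A, RpL4 with BCAS2, RpLP0 with CG7130 and RpLP1 with CG13690. The 24 shared peaks had signals of 80.7 to 491 with a median of 189, and the 14 unshared ones 86.2 to 374 with a median of 141, so both ranges overlap widely. The unshared summits had a median position of -0.50 bp and ran from -102 bp at RpL23A to 18 bp at RpL8.

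The replicates gave similar values at the members with a peak. Of the 38, 26 had the higher signal in replicate 1, with a median of the log2 ratio of replicate 1 to replicate 3 of 0.10 (SD 0.27). All 2712 peaks had a median of 0.18 and an SD of 0.51, and none of the 38 lay more than 2 SD from that median. RpL17 (93.1 in replicate 1 and 60.3 in replicate 3) and RpLP1 were among the highest ratios, at 0.63 and 0.49. RpL10Ab, RpL12 and RpL34a had the lowest, -0.44, -0.33 and -0.31. By rank within a replicate, 36 of the 38 were among the 2712 strongest regions of replicate 1 and all 38 among those of replicate 3. RpL10Ab and RpL12 were the exceptions, at ranks 4871 and 4030 of 30000 in replicate 1. The peaks were chosen by the authors on both replicates together, so this closeness is in part fixed by that choice. The same rank and ratio counts over all 2712 peaks are not given here, so these counts do not set the members apart from other peaks.

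**Figure D4:**
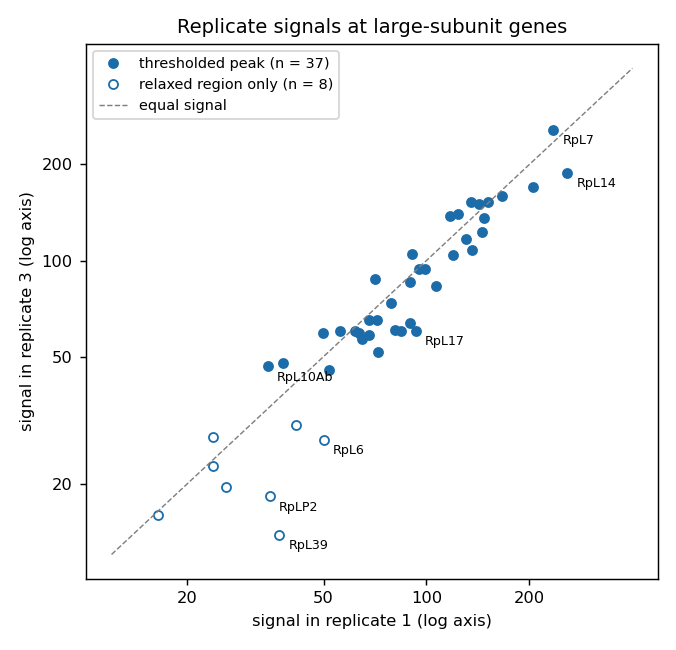
Signal in replicate 1 against signal in replicate 3 on log axes, 1 point per large-subunit gene, filled for 37 of the 38 with a thresholded peak and open for the 8 relaxed regions seen in both replicates. The filled points follow the dashed line of equal signal, and RpL39 (37.2 and 13.8) and RpLP2 (34.9 and 18.3) lie farthest below it.

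What the promoters share was counted as letters, in the 250 bases before and the 50 bases from the start of each gene's canonical transcript, on both strands. The TCT initiator, TCTTT or CCTTT with its C within 5 bases of any annotated TSS on the sense strand, was at 31 of 53 members (58.5%), 25 of 39 small-subunit genes (64.1%), 2 of 73 mitochondrial ribosomal protein genes (2.74%) and 3.31% of all protein-coding genes. With the canonical start alone, a choice made after seeing the data, it was at 23 members (43.4%) and 2.20% of protein-coding genes. The usual initiator TCAGT was at 1 member, RpL23A, against 14.0% of protein-coding genes. Within the members the TCT letters were at 23 of 38 with a peak and at 8 of 15 without, similar shares of 60.5% and 53.3%. Member peaks with the TCT letters had signals of 103.5 to 491 (median 205), and those without 80.7 to 271 (median 144).

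The DRE (TATCGATA) was in the promoter of 15 members (28.3%), 13 small-subunit genes (33.3%) and 15 mitochondrial ribosomal protein genes (20.5%). Of protein-coding genes 8.94% held it, and of those with a peak 13.4%. It was in 11 of 38 members with a peak (28.9%) and 4 of 15 without (26.7%), a similar share. Within 50 bp of the summit it was at 8 of the 38 member peaks (21.1%), against 4.19% of the peaks at protein-coding starts. Member summits lay nearer the start than those of all protein-coding genes with a peak, so the 2 sets of windows cover different parts of promoters. The part of this in the near-summit shares of any motif was not tested. The motif 1 core was in 10 member promoters (18.9%), 5 small-subunit promoters (12.8%), 8 mitochondrial ribosomal protein promoters (11.0%) and 9.39% of all. Of members with a peak 8 held it (21.1%), against 12.3% of protein-coding genes with a peak. RpLP0, whose stretch shown above holds it, is not among the 10, because its canonical transcript starts elsewhere. Near the summit it was at 5 member peaks (13.2%), against 3.88% of the peaks at protein-coding starts. The E-box CACGTG, to which Myc and other factors bind, was in 10 members (18.9%), while none of the 39 small-subunit promoters and 4.26% of all held it. Of mitochondrial ribosomal protein promoters 6.85% held it, and of protein-coding genes with a peak 5.88%. It was in 6 of 38 members with a peak (15.8%: RpL7, RpL11, RpL24, RpL29, RpL32 and RpL34b) and in 4 of 15 without (26.7%: RpL6, RpL7-like, RpL24-like and RpL35). The Forkhead core TGTTTAC was in 3 member promoters (5.66%), 1 small-subunit promoter (2.56%), 9 mitochondrial ribosomal protein promoters (12.3%) and 9.32% of all. It was within 50 bp of no member summit, against 3.95% of peaks at protein-coding starts. TATAAA was in 23 members (43.4%), close to the 45.3% of all promoters, but in 13 of 38 members with a peak (34.2%) and 10 of 15 without (66.7%). GAGAGAG and the Zelda site CAGGTAG were in no member promoter and no small-subunit promoter, against 6.20% and 1.72% of all. Of the 73 mitochondrial ribosomal protein promoters, 1 held GAGAGAG and none the Zelda site. The run AAAAAAAA, counted as a control, was in 11 members (20.8%) and 15.9% of all.

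**Figure D5:**
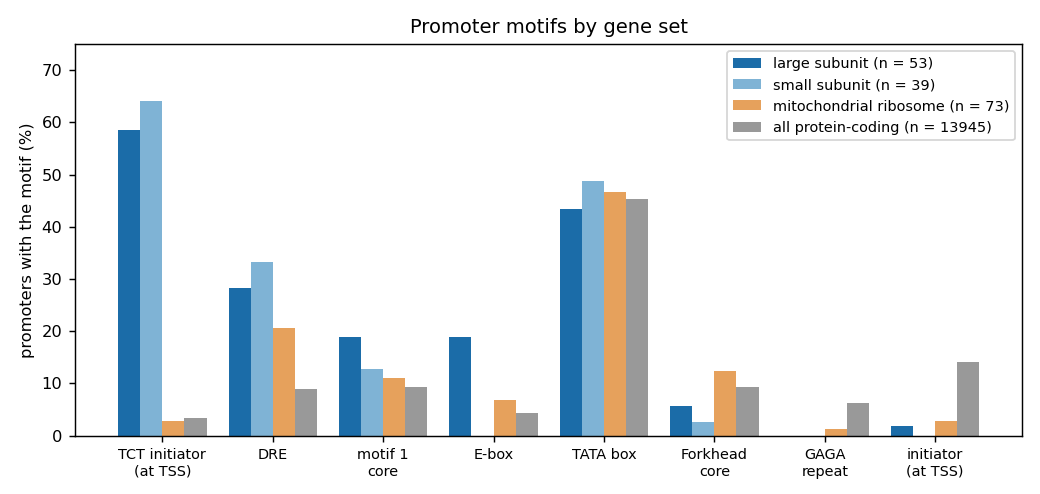
Bars give the percent of genes whose promoter holds each motif, for the large subunit, the small subunit, the mitochondrial ribosome and all protein-coding genes; the TCT initiator and the usual initiator were counted at the TSS and the others from 250 bases before to 50 from it. Both cytoplasmic sets stand at 58.5% and 64.1% for the TCT initiator, against 3.31% of all protein-coding genes. The bars labelled TATA box count the letters TATAAA anywhere in that window on either strand, not a placed TATA box. They stand at 43.4%, 48.7% and 46.6% in the ribosomal sets and 45.3% in all protein-coding genes.

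By base composition the same promoter windows of the members were at 37.5% GC (SD 5.12 over 53 genes), against 39.3% (SD 7.80) over all protein-coding genes. Members with a peak were at 38.7% (SD 4.89, 38 genes) and those without at 34.6% (SD 4.61, 15 genes), and the part of GC in the difference in TATAAA was not tested. Around the summits, 100 bp on either side, member peaks had 43.5% GC (SD 4.87) and the peaks at protein-coding starts 40.2% (SD 7.64), so the spreads overlap. By arm, 5 of 6 members on X, 9 of 13 on 2L, 8 of 13 on 2R, 8 of 10 on 3L and 8 of 11 on 3R had a peak.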

How the data were processed

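ChIP-seq reads from 2 samples were processed by the authors into region lists, which were the starting point. The deposited notes give the sources: single-replicate relaxed lists from that replicate and a control, the pooled relaxed and the thresholded list from both replicates. The relaxed lists hold 30000 regions each and the thresholded list 2712. The signal value per region and the -log10 of the q-value are as deposited by the authors. The summit offset is also the authors' deposited value. The sources used here do not name the aligner, the caller, its thresholds or how the signal was normalized, and the read depth is unknown. The q-values were not used to rank. The dm3 lists and the control were not used here.

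Coordinates are dm6. Genes, with all annotated starts, came from Ensembl release 115 without transposons, and the sequence from RefSeq's Release 6 assembly, within whose arms all regions ended. The nearest thresholded summit within 500 bp of a TSS was taken, else the pooled relaxed one. A replicate's value is the strongest region that overlaps it by at least 1 bp. Intervals are exact binomial (SciPy 1.17.1, Python 3.11.15) and cover counting error only. Genes are not replicates, so sets are described by counts and medians. The assignment of summits was checked on simulated data.

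The members, lists, motifs and alternatives were chosen with earlier results of these data known. Named were the 10 strongest members, all without a peak, paralogues, members with a shared promoter, the 3 extremes of replicate ratio and position at each end, and the listed structural groups. The symbol Tor was replaced by mTor. For 1 member with a peak, which the counts and medians include, individual values are not reported here and are left out of the plots by gene.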

Additional observations from a re-analysis of the deposited data

How the results depend on the processing

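Leaving out the members named -like could not change the count of 38 members with a peak, because none of them had one. The count was 38 with windows of 200 and 1000 bp and with the gene's 5' end as the only start. With the stronger 50% of peaks it was 33, which repeats the count by rank given above. When a single replicate supplied the 2712 strongest regions it was 37 to 38, and with replicate 1 alone RpL10Ab and RpL12 had none and RpL6 gained one. The count of 6 members without any region was 8 at 200 bp and 6 at 1000 bp. Neither median could move with other windows, because the same 38 members kept the same nearest summit. Nor could taking the strongest summit move them, because the second peaks at RpL32 and RpL34b were weaker. The median signal of 177 was 141 over peaks away from other starts, and 84.2 to 91.8 in single replicates, whose scale is lower. The median position of -16.5 bp was -0.50 bp over peaks away from other starts and -3 bp from the gene's 5' end. The median log2 ratio of 0.10 was -0.072 after subtracting the median over all peaks, which reverses its sign. Within 50 bp of the summit, in place of the promoter, members with a peak held the DRE in 8 (11 in the promoter) and the E-box in 4 (6). The motif 1 core was in 5 (8), TATAAA in 2 (13), the Forkhead core in 0 (1) and AAAAAAAA in 1 (8). That window is shorter, and the part of its length in these counts was not tested. Near the summit, TATAAA was at 5.26% of member peaks, against 14.0% of the peaks at protein-coding starts. The TCT and usual initiators are tied to the start and have no such value. With canonical starts alone, an alternative chosen after seeing the data, the TCT initiator was at 23 members in place of 31. No paired analysis was possible because there was 1 group. Precision is limited by 2 replicates of unknown depth.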

Other observations

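RpLP0-like, whose product is related to the stalk protein RpLP0, is outside the rule for the members. It carried a peak with a signal of 201, rank 427 of 2712, with its summit -49 bp from the TSS.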
